A study of Arabidopsis thaliana with 12 samples.

Results

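Carbon fixation and photorespiration were followed through 35 nuclear genes of Arabidopsis thaliana, chosen by locus from the 33607 genes of each deposited table: 4 small subunits of RuBisCO and its activase, 13 enzymes of the Calvin cycle in the chloroplast, 3 CP12 proteins, 2 carbonic anhydrases and 12 photorespiratory enzymes. All 12 libraries were polyadenylated RNA of wild-type Columbia-0 plants, with 3 libraries in each of 4 groups: rosettes and roots of control plants, and rosettes and roots of Fe-deficient plants. Every plant had first been raised in vitro for 10 days on complete ES medium with 1.5% sucrose, at 25 seedlings per plate with the light left on around the clock at 50 µmol m-2 s-1. Controls then went to fresh complete medium, and Fe-deficient plants to medium without iron holding 100 µM FerroZine, which binds ferrous iron; both were harvested 72 h later. Sucrose in the medium, continuous low light and whole organs thus apply to every group. Nothing in the labels says whether the 3 libraries of a group came from separate plates or cultures, so p-values measure the spread between these samples, which may be technical.

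In the Calvin cycle, RuBisCO joins CO2 to ribulose bisphosphate, the product is reduced to triose phosphate with ATP and NADPH, and the remaining enzymes rebuild the acceptor. RuBisCO also takes oxygen, and the phosphoglycolate that forms is recycled by photorespiration through the chloroplast, peroxisome and mitochondrion, with release of CO2 and ammonia in the mitochondrial step. Several enzymes of the cycle are switched on in the light by electrons that come from photosystem I through ferredoxin and thioredoxin, and both photosystem I and ferredoxin hold iron-sulfur clusters. The large subunit of RuBisCO is encoded in the plastid genome and is not among the 35 genes.

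The headers of the deposited tables do not name the unit; the values behave as RPKM and are called so here. RPKM are read densities scaled for the length of the transcript and the size of the library. Many deposited values also repeat exactly between libraries, so they were taken as equalised across the 6 libraries of a table. The depth of the libraries is unknown. In rosettes 18879 to 18947 genes reached 1 RPKM per library, and in roots 19790 to 19843 genes did. Replicates correlated at 0.9771 to 0.988 across genes, and libraries of different treatment at 0.9595 to 0.9734. The labels give RNA integrity numbers of 8.3 to 8.7 for leaves and 9.8 to 10 for roots, so RNA quality differed with the organ, and its part in any contrast of the organs was not tested. FER1, a ferritin gene known to fall when iron is short, fell from 233 ± 52.1 to 7.97 ± 0.794 RPKM in rosettes (SD, n = 3) and from 78.1 ± 5.47 to 16.3 ± 0.628 RPKM in roots.

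In rosettes, few genes of the pathway passed the test after 72 h without iron, and the one that moved furthest, RPE of the regeneration phase, fell by 51.8% in its mean. All 35 genes were tested, at a mean of at least 1 RPKM, with limma on log2(RPKM + 0.5) and Benjamini-Hochberg adjustment over 19006 genes. At an adjusted p under 0.05, 2 of the 35 were called lower in Fe-deficient rosettes, where 1.96% of all genes tested were called in either direction and 1.28% lower. None was called higher, against 0.679% of all genes, and 12 of the 35 had an unadjusted p under 0.05, as had 16.2% of all genes. The genes called lower were RPE, which encodes ribulose phosphate epimerase, and AGT1, which encodes the peroxisomal serine:glyoxylate aminotransferase. The median log2 fold change of the 35 was 0.06, against 0.00 over all genes tested, and 12 of the 35 lay below 0, or 34.3%, against 49.3% of all genes. Without each rosette library in turn except Fe-deficient replicate 1, the count of 2 fell to 1, which was RPE each time.

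**Figure D1:**
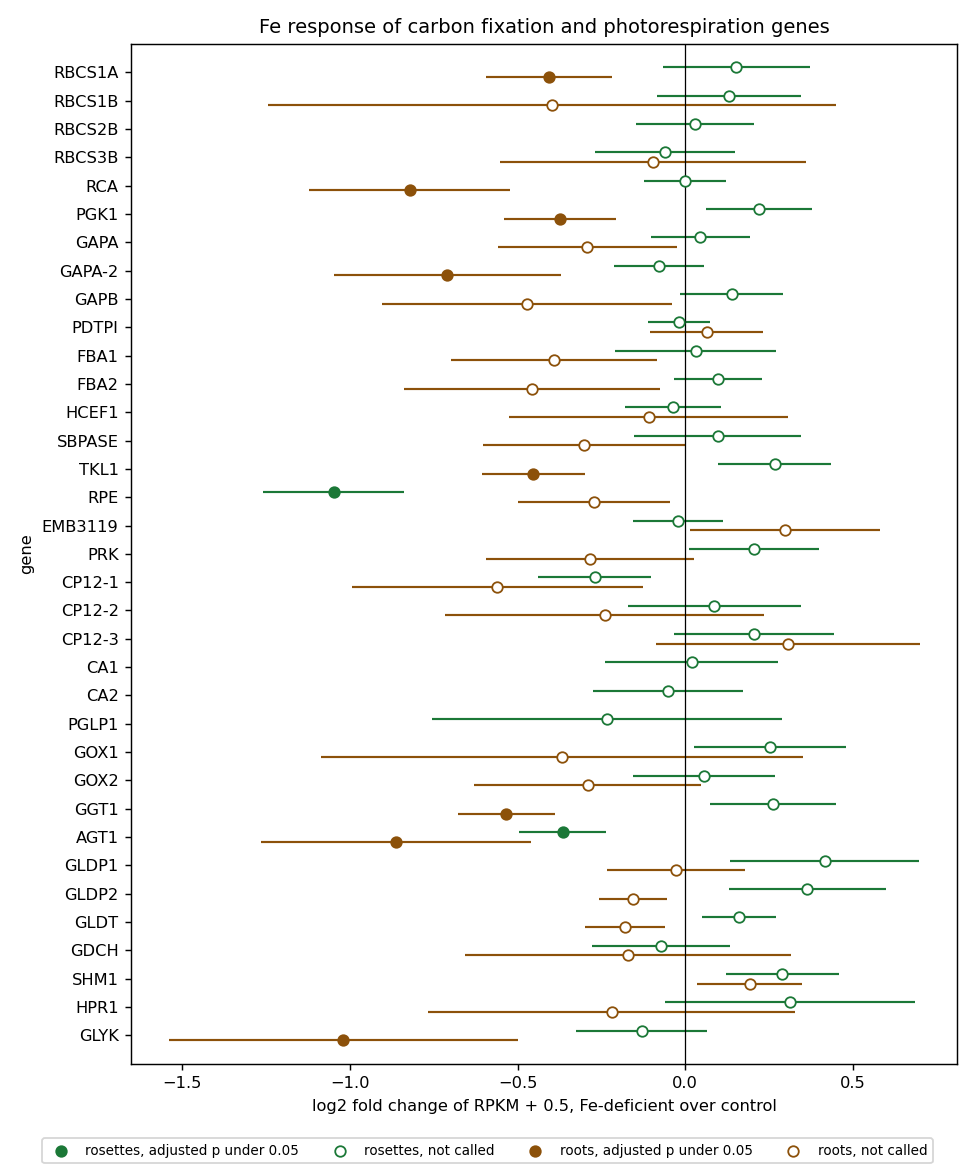
Log2 fold change of RPKM + 0.5, Fe-deficient over control (horizontal axis), for each of the 35 genes (vertical axis) in rosettes (green) and roots (brown), with 95% intervals of the limma fit from 3 libraries per group. Filled points are called at an adjusted p under 0.05; RPE stands alone on the left in rosettes, and 27 of the 31 genes tested in roots lie below 0.

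RPE (AT5G61410, chromosome 5, 24683606 to 24686217, minus strand) interconverts ribulose phosphate and xylulose phosphate; the enzyme of Escherichia coli is known to use ferrous iron as its metal. It stood at 345, 393 and 330 RPKM in the control rosettes and at 186, 160 and 169 RPKM in the Fe-deficient rosettes. Every Fe-deficient library was thus far below every control library. The means were 356 ± 32.9 and 172 ± 13.1 RPKM (SD, n = 3), a log2 fold change of -1.05 with a standard error of 0.0860 (adjusted p 0.00296). The call held in 14 of 14 alternative fits, with adjusted p between 0.000496 and 0.0337. Among all 35 genes in rosettes, RPE was the only one whose 95% interval reached beyond a 2-fold change in either direction.

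AGT1 (AT2G13360, chromosome 2, 5538740 to 5541479, minus strand) passes the amino group of serine to glyoxylate in the peroxisome, which yields glycine. Control rosettes held 571, 598 and 567 RPKM, and Fe-deficient rosettes 466, 458 and 424 RPKM. The libraries did not overlap, and the fall was smaller than that of RPE, at -0.37 on the log2 scale (SE 0.0532, adjusted p 0.0298). AGT1 was called in 6 of 14 alternative fits, with adjusted p between 0.0160 and 0.131. It was lost without any 1 of control replicates 1, 2 and 3 or of Fe-deficient replicates 2 and 3. The call was also lost with no filter, without a trend and with the replicate number as a block.

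The remaining 33 genes were not called, and their intervals bound the change in the deposited values. For abundant genes with tied values, described below, such intervals need not bound the change in RNA. All 33 had a 95% interval of the log2 fold change inside -1 to 1, with outer bounds of -0.75 (PGLP1) and 0.70 (GLDP1). Their estimates ran from -0.27 for CP12-1 to 0.42 for GLDP1. The lowest adjusted p among them was 0.122, for SHM1.

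RuBisCO is among the most abundant messages of a leaf, and the RBCS genes encode its small subunit. RBCS1A (AT1G67090, chromosome 1, 25048158 to 25049667, minus strand) held rank 1 or 2 of all genes in every rosette library. Its values were 6504, 7619 and 6504 RPKM in control rosettes and 7619 RPKM in each Fe-deficient rosette library, a log2 fold change of 0.15 (95% interval -0.07 to 0.37, adjusted p 0.469). RBCS1B, RBCS2B and RBCS3B lie beside each other on chromosome 5, and their control means were 1735 ± 185, 1825 ± 121 and 3048 ± 302 RPKM. Their log2 fold changes were 0.13, 0.03 and -0.06, and none was called.

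The deposited values of the most abundant genes repeat between libraries. RCA (AT2G39730, chromosome 2, 16570746 to 16573692, minus strand), which encodes the activase that frees RuBisCO of bound sugar phosphates, reads 2616.5 RPKM in each of the 6 rosette libraries. In all, 14 of the 35 genes shared 1 exact value between at least 2 rosette libraries, as did 9.82% of all genes tested. Among genes at 500 RPKM or more it was 12 of 18 of these genes and 36.8% of all genes. A tied value carries no information on small differences, so the rosette intervals of RBCS1A, RCA and FBA2, whose 3 control libraries all read 1019 RPKM, may be too narrow. The same may hold for the others of the 9 genes tied within a group in rosettes. GGT1 is among them, at 682.94 RPKM in Fe-deficient replicates 1 and 3. RPE and AGT1 had 6 different values each.

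The RBCS genes resemble each other in sequence, which matters for how reads are shared out among them. Over the whole coding sequence, RBCS1A was 90.4% to 90.6% identical to the 3 others, and these were 96.7% to 97.3% identical to each other. The stretch below is shown because it holds many of the differences; it covers coding bases 15 to 104, counted from the A of the start codon, on the coding strand (RefSeq, TAIR10.1). Capitals in RBCS1A mark bases that differ from all 3 others, and capitals in the others mark bases that differ from RBCS1A.
RBCS1A: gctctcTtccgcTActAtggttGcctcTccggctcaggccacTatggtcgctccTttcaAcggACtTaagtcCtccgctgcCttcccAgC
RBCS1B: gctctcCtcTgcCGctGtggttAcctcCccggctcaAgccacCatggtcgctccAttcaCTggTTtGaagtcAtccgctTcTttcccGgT
RBCS2B: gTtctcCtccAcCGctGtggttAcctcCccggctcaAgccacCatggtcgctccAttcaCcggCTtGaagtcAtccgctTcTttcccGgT
RBCS3B: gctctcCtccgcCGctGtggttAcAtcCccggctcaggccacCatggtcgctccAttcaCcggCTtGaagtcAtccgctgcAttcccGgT
The 4 lines carry 16, 20, 20 and 17 capitals. Of all 50-base windows in the longest annotated transcript, 1.48% of RBCS1A occur in another gene, against 14%, 21.4% and 18.3% of RBCS1B, RBCS2B and RBCS3B. How reads common to several copies were assigned is not given in the sources used here. Summing RBCS1B, RBCS2B and RBCS3B removes only the effect of how reads were split among these 3; RBCS1A also shares windows with RBCS1B and RBCS2B, and reads matching several copies may have been dropped. The log2 fold change of that sum in rosettes was 0.02 (SE 0.0878, adjusted p 0.947).

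In the reduction phase, PGK1 (phosphoglycerate kinase) held 565 ± 39.2 RPKM in control and 658 ± 26.4 RPKM in Fe-deficient rosettes. The libraries did not overlap, but the adjusted p was 0.185. GAPA, GAPA-2 and GAPB, subunits of the NADPH-dependent glyceraldehyde phosphate dehydrogenase, had log2 fold changes of 0.05, -0.08 and 0.14, and PDTPI, the plastid triose phosphate isomerase, -0.02. In the regeneration phase, TKL1 (AT3G60750, transketolase) read 571, 641 and 600 RPKM in control and 677, 735 and 768 RPKM in Fe-deficient rosettes. These libraries did not overlap either, with a log2 fold change of 0.27 and an adjusted p of 0.145. The aldolases FBA1 and FBA2, the phosphatases HCEF1 and SBPASE, the isomerase EMB3119 and PRK, which makes ribulose bisphosphate, lay between -0.04 and 0.21 on the log2 scale. RPE was thus the single called gene among the 8 of the regeneration phase.

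CP12 proteins bind glyceraldehyde phosphate dehydrogenase and phosphoribulokinase into an inactive complex in the dark. CP12-1 held 903 ± 36.5 RPKM in control and 750 ± 55.1 RPKM in Fe-deficient rosettes, with no overlap and an adjusted p of 0.142. CP12-2 and CP12-3 had log2 fold changes of 0.09 and 0.20. The chloroplast carbonic anhydrase CA1 and CA2, which interconvert CO2 and bicarbonate, had log2 fold changes of 0.02 and -0.05, with 95% intervals of -0.24 to 0.28 and -0.28 to 0.17.

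Of the 12 photorespiratory genes, 7 had an unadjusted p under 0.05 in rosettes, where 16.2% of all genes had, and AGT1 alone was called. Their median log2 fold change was 0.21. In 6 of the 12 every Fe-deficient library lay above every control library, where 10% of all genes tested did: GOX1, GGT1, GLDP1, GLDP2, GLDT and SHM1. GLDP1 and GLDP2, the P-protein of mitochondrial glycine decarboxylase, went from 352 ± 56.2 to 466 ± 23.1 RPKM and from 158 ± 18.1 to 203 ± 13.7 RPKM, with adjusted p of 0.164 and 0.150. SHM1, the serine hydroxymethyltransferase that works beside it, went from 744 ± 51.7 to 909 ± 42.7 RPKM. GLDT, the T-protein of the same complex, had a log2 fold change of 0.16 (adjusted p 0.166), and GDCH, an H-protein, of -0.07 (adjusted p 0.731). GGT1, the glutamate:glyoxylate aminotransferase, read 566, 627 and 513 RPKM in control rosettes and 683, 674 and 683 RPKM in Fe-deficient rosettes, with an adjusted p of 0.180. GOX1 and GOX2, the peroxisomal glycolate oxidases, had log2 fold changes of 0.25 and 0.06, HPR1 (hydroxypyruvate reductase) of 0.31 and GLYK (glycerate kinase) of -0.13; none was called.

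Over the 35 genes, 10 had every Fe-deficient rosette library above every control library, or 28.6%, against 10% of all genes tested. They were the 6 photorespiratory genes above with PGK1, GAPB, FBA2 and TKL1. The reverse held for 3 genes, RPE, CP12-1 and AGT1, or 8.57%, against 11.4% of all genes. The summed level of the 35 genes was 29560 to 33040 RPKM in control and 31830 to 32780 RPKM in Fe-deficient rosettes, and control replicate 2 was above all the rest. In the authors' deposited table, 14 of the 35 genes have a deposited p-value under 0.05 in rosettes. Of these, 3 are lower (RPE, CP12-1 and AGT1) and 11 higher, and limma called none of the 11. The share is 1.05% over all 33607 genes, which include those below 1 RPKM. PGK1 and CP12-3 have the same deposited log2 fold change, 0.22, at control means of 565 and 10.8 RPKM. Only PGK1 is under 0.05. The 14 and the 1.05% were not matched for abundance and cannot be compared directly. Whether the deposited p-value was adjusted is not given in the sources used here.

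**Figure D2:**
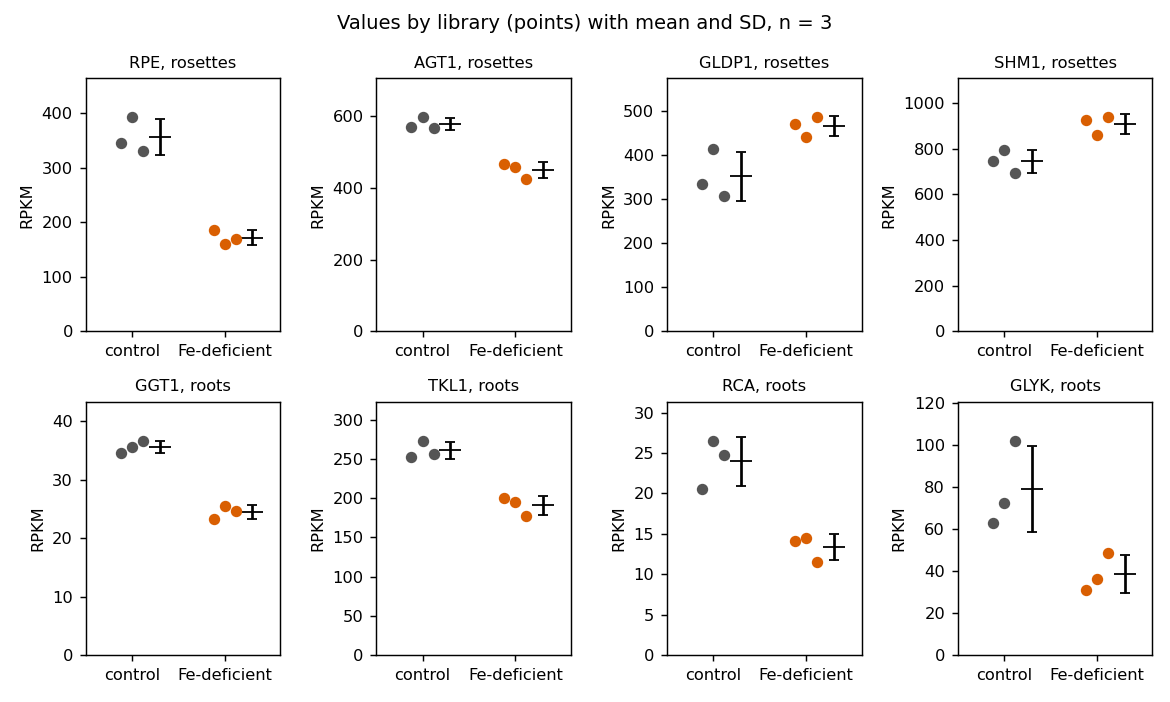
RPKM of each library (points, vertical axis from 0) for 4 genes in rosettes and 4 in roots, control and Fe-deficient side by side, with the mean and SD of 3 libraries to the right of the points. RPE falls from 356 to 172 RPKM in rosettes; GGT1, TKL1, RCA and GLYK fall in roots without overlap between the groups; GLDP1 and SHM1 lie apart upward but were not called.

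In roots, most genes of the pathway stood far lower, by the levels of a separately normalised table, and the 8 that passed the test all fell. A mean of 1 RPKM was reached by 31 of the 35; RBCS2B, CA1, CA2 and PGLP1 were below it and were not tested. Of the 31, 8 were called lower, where 5.87% of 19932 genes tested were called in either direction and 2.35% lower, and 0 higher in limma, where 3.52% were. An unadjusted p under 0.05 was reached by 18 genes, 16 of them lower and 2 higher (EMB3119 and SHM1), where 21.3% of all genes reached it. The log2 fold change was below 0 for 27 of the 31, or 87.1%, against 54.1% of all genes, and the median was -0.29 against -0.02. Every Fe-deficient library lay below every control library for 17 genes, or 54.8%, against 14.1% of all genes, and above for 1, SHM1, or 3.23%, against 12%.

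How many genes were called depended on single libraries. Without root control replicate 2 the count of 8 became 1 (GGT1), and without control replicate 3 it became 3. It became 4, 3 and 4 without Fe-deficient replicates 1, 2 and 3, and stayed at 8 without control replicate 1, when EMB3119 was also called higher.

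GGT1 (AT1G23310, chromosome 1, 8268385 to 8272021, minus strand), which makes glycine from glyoxylate in the peroxisome, gave the lowest adjusted p of the pathway in roots. It read 34.6, 35.7 and 36.7 RPKM in control roots and 23.3, 25.6 and 24.6 RPKM in Fe-deficient roots. The replicates lay close together and the groups far apart, with means of 35.7 ± 1.08 and 24.5 ± 1.15 RPKM. The log2 fold change was -0.53 (SE 0.0605, adjusted p 0.00351), and GGT1 was called in 14 of 14 alternative fits, with adjusted p between 0.00153 and 0.0254.

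TKL1 (chromosome 3, 22453668 to 22457458, plus strand) was the most abundant of the 35 genes in roots. Control roots held 253, 274 and 257 RPKM and Fe-deficient roots 201, 195 and 177 RPKM, which is -0.45 on the log2 scale (SE 0.0650, adjusted p 0.0101). The groups did not overlap. The call was lost in 2 of 14 alternative fits, without control replicate 2 and with no filter on low values, where the adjusted p reached 0.0554. TKL2 (AT2G45290), another transketolase gene that is not among the 35, went the other way in roots, from 79.1, 83.4 and 78.8 to 130, 132 and 113 RPKM. Its log2 fold change there was 0.63 (SE 0.0698, adjusted p 0.00318). No 50-base window of the TKL1 transcript occurs in another gene, so reads of that length or longer tell the 2 genes apart.

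RCA, which stood at 1 value in all rosettes, fell in roots. It read 20.6, 26.5 and 24.8 RPKM in control roots and 14.1, 14.5 and 11.5 RPKM in Fe-deficient roots, which is -0.82 on the log2 scale (SE 0.126, adjusted p 0.0133). The gene overlaps AT2G39725 on the opposite strand, and whether counting used strand is not given in the sources used here. RCA was lost without control replicate 2 or 3 and with no filter on low values, where the adjusted p was at most 0.0829. RBCS1A fell from 47.3, 55.3 and 52.5 to 41.7, 36.7 and 38.2 RPKM, which is -0.41 on the log2 scale (SE 0.0790, adjusted p 0.0326). It kept its call in 6 of 14 alternative fits and lost it without any 1 root library other than control replicate 1, with adjusted p up to 0.119. The call was also lost with no filter, without a trend and with the replicate number as a block. RBCS1B and RBCS3B stood at 1.35 ± 0.486 and 2.44 ± 0.451 RPKM in control roots and were not called, with intervals of -1.24 to 0.45 and -0.55 to 0.36.

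PGK1 (AT3G12780) fell from 49.0, 54.9 and 49.5 to 41.7, 37.2 and 39.1 RPKM in roots, by 0.37 on the log2 scale (adjusted p 0.0295). It too overlaps a gene on the opposite strand, AT3G12775. GAPA-2 (AT1G12900) fell from 6.74, 9.29 and 7.92 to 4.25, 4.44 and 5.32 RPKM, a log2 fold change of -0.71 (adjusted p 0.0363). Both were lost without any 1 root library other than control replicate 1, with adjusted p up to 0.109 for PGK1 and 0.128 for GAPA-2. Both calls were also lost with no filter and with the replicate number as a block, and that of PGK1 without a trend. GAPA and GAPB had log2 fold changes of -0.29 and -0.47 with adjusted p of 0.196 and 0.197. PDTPI stood at 108 ± 7.29 RPKM in control and 113 ± 6.63 RPKM in Fe-deficient roots, with a 95% interval of -0.11 to 0.23.

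In the regeneration phase, FBA1, FBA2, SBPASE and PRK held 2.45 to 5.64 RPKM in control roots and had log2 fold changes of -0.39, -0.46, -0.30 and -0.28, each with no overlap and none called. HCEF1, at 1.74 ± 0.391 RPKM in control roots, had one of -0.11 with a 95% interval of -0.53 to 0.31. RPE read 27.6, 29.3 and 31.2 RPKM in control and 27.1, 24.3 and 21.6 RPKM in Fe-deficient roots. These groups stood apart only narrowly, and the log2 fold change of -0.27 had an adjusted p of 0.162. EMB3119, the ribose phosphate isomerase, went from 17.7 ± 2.90 to 21.7 ± 1.4 RPKM (adjusted p 0.212). It overlaps AT3G01505 on the opposite strand, and 19.7% of its 50-base windows occur in that gene. HCEF1, PRK, GOX1 and GLDP1 also overlap genes on the opposite strand. CP12-1 held 30.2, 24.9 and 26.3 RPKM in control and 24.5, 16.4 and 14.9 RPKM in Fe-deficient roots, with a log2 fold change of -0.56 and an adjusted p of 0.138. It was called only without Fe-deficient replicate 1.

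AGT1 fell in both organs. In roots it read 4.28, 4.55 and 6.60 RPKM in controls and 2.41, 2.54 and 2.73 RPKM in Fe-deficient plants, which is -0.86 on the log2 scale (SE 0.170, adjusted p 0.0341). It kept its call in 8 of 13 alternative fits, and lost it without control replicate 2, without any 1 Fe-deficient replicate and with no filter, with adjusted p up to 0.120. The fall of AGT1 was not shown to differ between the organs (difference of log2 fold changes 0.50, SE 0.178, adjusted p 0.214).

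GLYK (AT1G80380, chromosome 1, 30217116 to 30220595, plus strand) returns glycerate to the Calvin cycle as phosphoglycerate. It had the largest log2 fold change of the 31 genes in roots and also the largest standard error among the 8 called. Its values were 62.9, 72.3 and 102 RPKM in control roots and 31.0, 36.2 and 48.8 RPKM in Fe-deficient roots. The groups did not overlap, with means of 79.1 ± 20.5 and 38.7 ± 9.13 RPKM and a difference of -1.02 on the log2 scale (SE 0.219, adjusted p 0.0455). GLYK was called in 8 of 14 alternative fits. It was lost without control replicate 2 or 3 and without Fe-deficient replicate 1 or 2, with adjusted p up to 0.146, and also without a trend (0.0720) and with no filter (0.188).

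No glycine decarboxylase gene was called in roots. GLDP2 read 110, 111 and 110 RPKM in control and 99.9, 98.3 and 98.3 RPKM in Fe-deficient roots. The groups did not overlap, with a log2 fold change of -0.15 and an adjusted p of 0.0933. Control replicates 1 and 3 were tied at 109.57 RPKM, and Fe-deficient replicates 2 and 3 at 98.28 RPKM. The standard error of GLDP2 in roots, 0.0428, may therefore be too small. GLDT read 97.4, 100.2 and 93.7 RPKM in control and 85.2, 88.2 and 83.8 RPKM in Fe-deficient roots (log2 fold change -0.18, adjusted p 0.0974). GLDP1, at 42.2 ± 1.83 and 41.6 ± 4.38 RPKM, had a log2 fold change of -0.03 with a 95% interval of -0.23 to 0.18. SHM1 went from 43.8 ± 2.79 to 50.1 ± 2.02 RPKM (adjusted p 0.154). GOX1, GOX2, GDCH and HPR1 had log2 fold changes between -0.37 and -0.17, and none was called.

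Of the 23 genes tested and not called in roots, 21 had a 95% interval inside -1 to 1 on the log2 scale, and the outer bounds over the 23 were -1.24 and 0.70. In the authors' deposited table, 2 of the 35 genes have a deposited p-value under 0.05 in roots, TKL1 and GLYK, both lower. The share is 1.67% over all 33607 genes, again with those below 1 RPKM included. The summed level of the 35 genes was 1034 to 1096 RPKM in control and 844 to 905 RPKM in Fe-deficient roots, which did not overlap and differed by -18.2% in the mean.

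The summed level of leaf markers was also lower in Fe-deficient roots, though none reached 1 RPKM and none was tested there. The 12 markers of leaf and shoot tissue summed to 1.93 to 2.04 RPKM in control roots and 1.4 to 1.85 RPKM in Fe-deficient roots, a difference of -22.2% with no overlap; in control rosettes they summed to 146 ± 11 RPKM. Of the 12, 6 are listed at 1 identical value of 0.03 to 0.08 RPKM in all 6 root libraries: MUTE, FAMA, GL1, FIL, YAB3 and YAB5. The means of CER1, MYB60, TMM and KAT1 were lower in Fe-deficient roots, with CER1 at 0.663 ± 0.116 and 0.433 ± 0.0929 RPKM, and those of SPCH and EPF2 were higher. Control roots held 1.36% of the summed marker level of control rosettes, and 0.175% to 5.43% of the single markers. RBCS2B and CA1, at 1825 ± 121 and 823 ± 108 RPKM in control rosettes, were listed at 0.07, 0.07 and 0.07 RPKM and at 0.04, 0.04 and 0.13 RPKM in control roots. Such repeated low values may stand for no reads, so these genes held at most 0.00384% and 0.00851% of their rosette level. The 8 root markers summed to 3310 ± 18.7 and 3330 ± 51.9 RPKM in control and Fe-deficient roots. The part of leaf tissue in the falls was not tested, and in whole roots fewer cells of a type and less RNA per cell cannot be told apart.

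The 35 genes differed by several orders of magnitude in how far roots stood below rosettes, as levels set across separately normalised tables and with no test. Control roots held a median of 0.916% of the control rosette level. The share was below 1% for 19 genes, among them RBCS1A at 0.752%, RCA at 0.916%, SBPASE at 0.678%, PRK at 0.659% and AGT1 at 0.889%. It was from 1% to 10% for 8 genes, including PGK1 at 9.04%, RPE at 8.25%, GGT1 at 6.27% and SHM1 at 5.88%. It was above 10% for 8 genes. Those were EMB3119 at 12.3%, GLDP1 at 12%, GLDT at 19.7%, PDTPI at 32.2%, TKL1 at 43.3%, GLDP2 at 69.4%, GLYK at 81.9% and CP12-3 at 124%. TKL1, PDTPI and EMB3119 act on sugar phosphates that plastids without photosynthesis also handle, while RuBisCO, SBPASE and PRK are known for carbon fixation. The genes called in roots came from all 3 ranges.

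**Figure D3:**
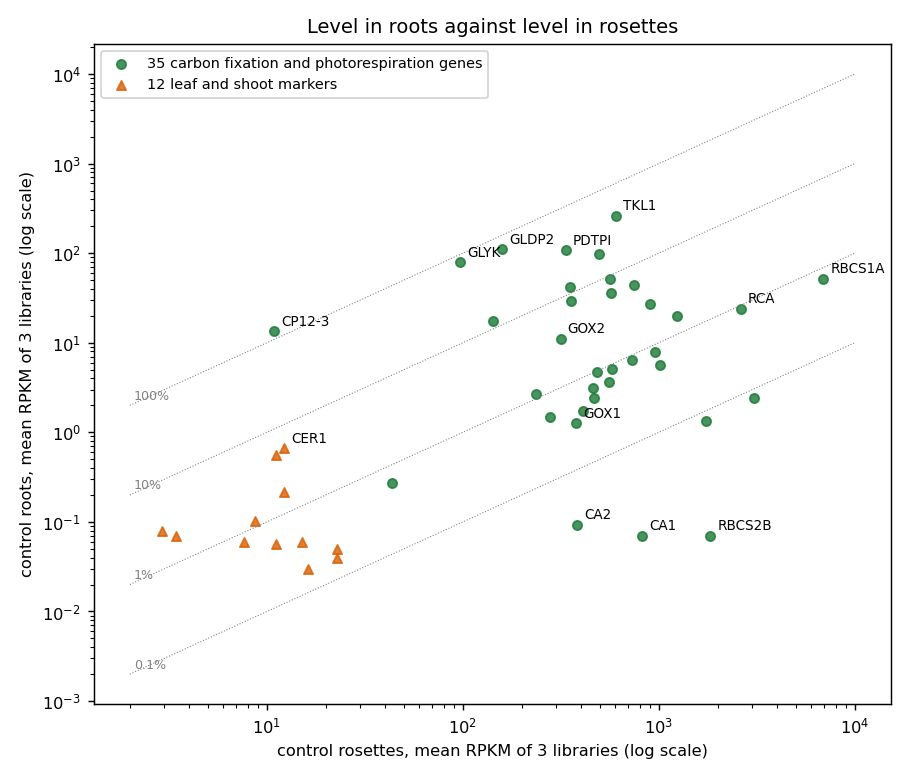
Mean RPKM of 3 control root libraries (vertical, log scale) against mean RPKM of 3 control rosette libraries (horizontal, log scale) for the 35 genes (circles) and 12 leaf and shoot markers (triangles), with dotted lines at 100%, 10%, 1% and 0.1% of the rosette level. In percent of the rosette level, RBCS1B, RBCS2B, RBCS3B, CA1 and CA2 lie below 0.1% and the lowest marker is at 0.175%, while CP12-3, GLYK and GLDP2 lie between 69.4% and 124%.

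Within gene families, the shares of the copies also differed between the organs, again as a description. The larger copy changed for the GOX and GLDP pairs, while RBCS1A was the largest RBCS copy in both organs. RBCS1A made up 51% ± 0.958 of the summed RBCS level in control rosettes and 93.1% ± 0.827 in control roots. GOX2, next to GOX1 on chromosome 3, made up 45.5% ± 1.34 of the pair in control rosettes and 89.8% ± 0.595 in control roots. The 2 GOX coding sequences were 92.4% identical, and 1.19% of the 50-base windows of GOX1 occur in GOX2. GLDP2 made up 31.2% ± 1.58 of its pair in control rosettes and 72.3% ± 0.791 in control roots, at 85.1% identity to GLDP1. Over all 6 libraries of an organ, the share of RBCS1A was 49.9% to 53.6% in rosettes but 90.8% to 93.9% in roots, and that of GLDP2 was 28.9% to 32.8% against 68.8% to 73.2%. CP12-3 made up 0.907% ± 0.0339 of the CP12 level in control rosettes, and 31.7% ± 2.01 in control and 46% ± 4.79 in Fe-deficient roots. GAPA-2 made up 28.7% ± 1.66 of the GAPA level in control and 22.5% ± 1.01 in Fe-deficient roots. For PGLP1 (phosphoglycolate phosphatase) no such share can be read: its coding sequence is 100% identical to that of PGLP1B (AT5G36790), and the sum of both went from 94.3 ± 7.44 to 85.9 ± 10.5 RPKM in rosettes (log2 fold change -0.14, adjusted p 0.570).

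**Figure D4:**
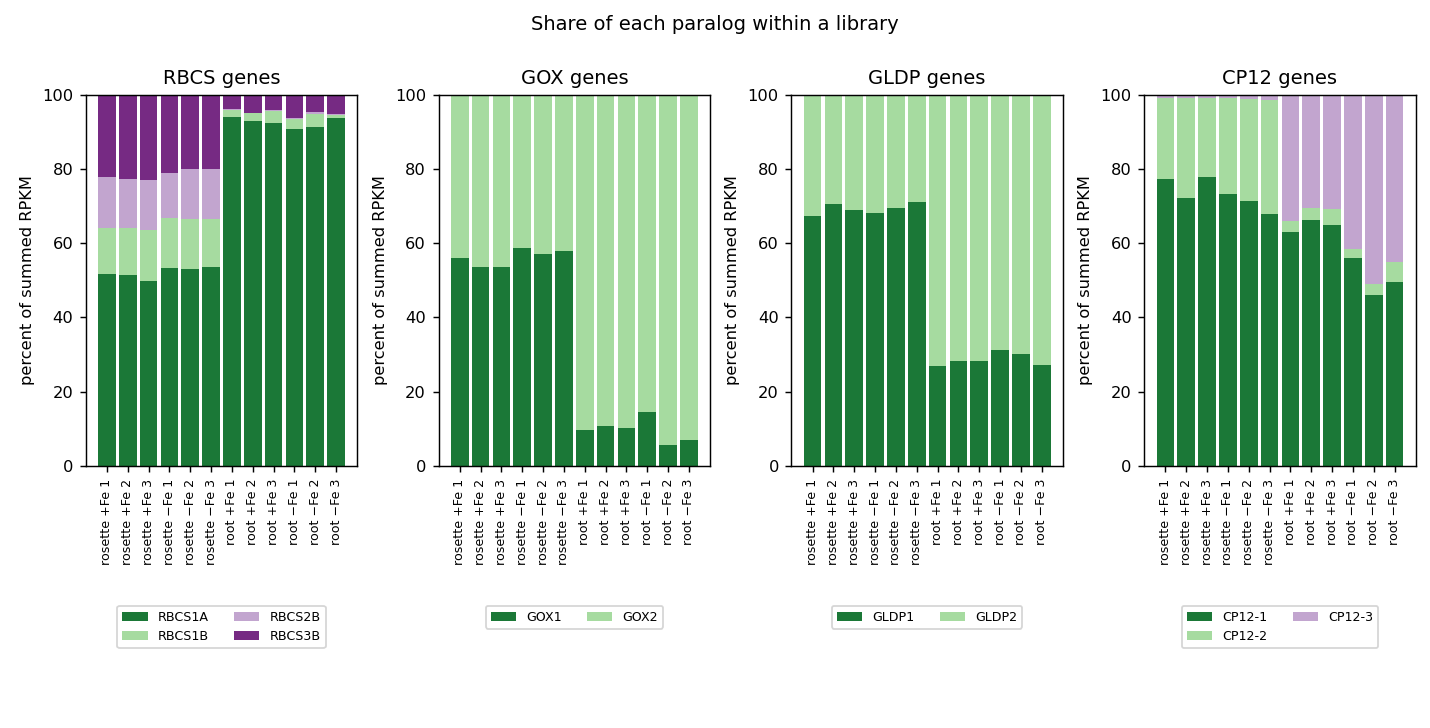
Percent of a family's summed RPKM (vertical axis, 0 to 100) held by each copy in each of the 12 libraries (bars) for the RBCS, GOX, GLDP and CP12 genes; +Fe marks control and −Fe marks Fe-deficient libraries. RBCS1A goes from 51% of the RBCS level in control rosettes to 93.1% in control roots, and GOX2, GLDP2 and CP12-3 take larger shares in roots than in rosettes.

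Whether the response to iron deficiency differed between rosettes and roots was tested as the difference of the log2 fold changes, rosettes minus roots, adjusted over the 17680 genes tested in both organs. Of the 31 genes tested in both, 8 differed, where 3.48% of all genes did. The difference was above 0 for 7 of them, where 1.39% of all genes differed in that direction: RBCS1A, RCA, PGK1, TKL1, GGT1, GLDP2 and GLDT. It was below 0 for RPE alone. TKL1 gave 0.72 (SE 0.0949, adjusted p 0.000654) and GGT1 0.80 (SE 0.0980, adjusted p 0.000546); both lay apart upward in rosettes and fell in roots. PGK1 gave 0.59 (SE 0.0960, adjusted p 0.00299) and RCA 0.82 (SE 0.136, adjusted p 0.0116). All 6 rosette values of RCA are tied, so its difference only restates its root log2 fold change of -0.82. RBCS1A had only 2 different values in rosettes. GGT1 values were tied within the Fe-deficient rosettes, and GLDP2 values within both groups of roots. The standard errors of these differences may be too small. RPE, with a difference of -0.78 (SE 0.128, adjusted p 0.00358), had the lower log2 fold change in rosettes. Over all 31 genes the median difference was 0.44, against 0.02 over all genes, and 27 of the 31 lay above 0.

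PGK1, TKL1, RPE and GGT1 kept this call in 20 of 20 alternative fits. RBCS1A kept it in 13, RCA in 18, GLDP2 in 14 and GLDT in 19 of 20. Each fit of RCA reused the tied rosette value, so the fits probed only its root values. RCA was lost without root control replicate 2 and with no filter on low values (adjusted p up to 0.0943). RBCS1A was lost without rosette control replicate 1 or 3, without Fe-deficient rosette replicate 2 and without root control or Fe-deficient root replicate 2 (adjusted p up to 0.103). It was also lost with no filter (0.0847) and with the replicate number as a block (0.0571). GLDP2 was lost without rosette control replicate 1 and without any 1 Fe-deficient rosette replicate (adjusted p up to 0.0978), and also without a trend (0.0540) and with no filter (0.158).

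The regions upstream of the gene starts were searched for short motifs known from light-regulated plant genes. The motifs were the G-box, CACGTG, and the core of the I-box, GATAAG, on either strand; a match of one can share only an end base with a match of the other. In the 250 bases before the start of the gene in RefSeq (TAIR10.1), the G-box was found for 5 of the 35 genes, or 14.3%, and for 6.49% of 27443 nuclear protein-coding genes. The I-box core was found for 6 of the 35, or 17.1%, against 12.3%. A match is a string of letters and not a site in use, and the start used is the outermost one annotated for the gene. The windows of 3 genes with calls in different organs are shown, with motif matches in capitals.
RCA, chr2:16573693-16573942, minus strand: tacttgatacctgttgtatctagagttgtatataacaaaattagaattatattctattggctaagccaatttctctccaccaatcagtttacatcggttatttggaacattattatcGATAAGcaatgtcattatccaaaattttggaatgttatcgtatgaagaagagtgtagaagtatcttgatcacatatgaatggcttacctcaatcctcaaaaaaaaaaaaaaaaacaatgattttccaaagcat
GGT1, chr1:8272022-8272271, minus strand: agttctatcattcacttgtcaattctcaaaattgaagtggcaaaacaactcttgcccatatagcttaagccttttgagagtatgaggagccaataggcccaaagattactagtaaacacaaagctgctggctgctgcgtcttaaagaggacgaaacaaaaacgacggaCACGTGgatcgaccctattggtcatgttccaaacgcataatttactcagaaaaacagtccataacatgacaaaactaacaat
RPE, chr5:24686218-24686467, minus strand: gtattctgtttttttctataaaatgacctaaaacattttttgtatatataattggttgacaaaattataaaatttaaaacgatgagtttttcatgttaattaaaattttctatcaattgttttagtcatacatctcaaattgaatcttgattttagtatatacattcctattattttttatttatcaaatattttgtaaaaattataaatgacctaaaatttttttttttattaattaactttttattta
RCA and GGT1, which fell in roots, hold an I-box core and a G-box respectively, while the other 6 genes called in roots hold neither motif in this window. For PGK1, TKL1 and GLYK, among these 6, the window reaches into a neighbouring gene. Motifs outside the window were not searched for, so a gene without a match may still hold them. RPE, which fell in rosettes, holds neither.

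Genes around the pathway were taken from lists chosen with earlier results of these data known. Of 11 genes on a list drawn up around the assembly of RuBisCO, 1 was called lower in rosettes, CPN20, the co-chaperonin of the chloroplast. It went from 611 ± 14.8 to 495 ± 6.33 RPKM (log2 fold change -0.30, adjusted p 0.0222). The median of the list was -0.21, and 10 of 11 lay below 0. In roots 10 of them were tested, with CPN20 called lower (-0.31, adjusted p 0.0125). AT4G39970 was called higher, from 2.59 ± 0.553 to 4.80 ± 0.379 RPKM (adjusted p 0.0360). RefSeq names it a HAD-like hydrolase and not an assembly factor. Of 6 other plastid isoforms, PGK2 was called higher in rosettes, from 112 ± 2.18 to 139 ± 1.43 RPKM (adjusted p 0.0119), and TKL2 higher in roots.

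Of 18 other photorespiratory genes, GS2 and CAT2 were called, in different organs. GS2, the chloroplast glutamine synthetase that takes up photorespiratory ammonia, rose in rosettes from 749, 777 and 749 to 1025, 974 and 1001 RPKM (log2 fold change 0.40, SE 0.0453, adjusted p 0.0116). CAT2, the haem-containing catalase that removes the peroxide made by glycolate oxidase, fell in roots from 154, 168 and 162 to 102, 117 and 93.3 RPKM (log2 fold change -0.63, SE 0.0873, adjusted p 0.00863). The medians of that list were 0.00 in both organs. Among 5 regulators of chloroplast genes, GNC was called lower in rosettes, from 23.7 ± 1.79 to 16.8 ± 0.199 RPKM (adjusted p 0.0223). GLK2 was called lower in roots, from 5.84, 4.99 and 5.84 to 2.42, 3.57 and 3.19 RPKM (adjusted p 0.0328), and its response differed between the organs (0.98, adjusted p 0.0104). The photosystem and antenna list, set beside the 35 genes, had 3 of 26 called lower in rosettes with a median of -0.22. In roots it had 13 of 24 called lower with a median of -0.54.

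**Figure D5:**
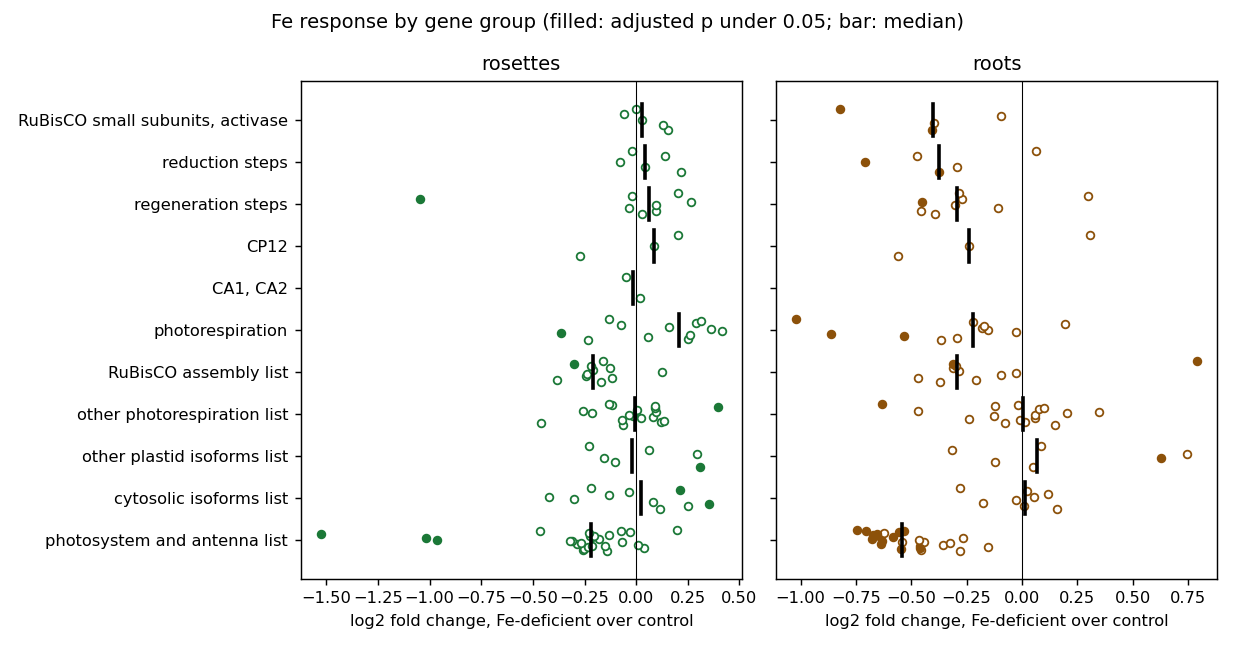
Log2 fold change of RPKM + 0.5, Fe-deficient over control (horizontal axis), of each gene tested (points) by gene group (vertical axis), in rosettes (left) and roots (right); filled points are called at an adjusted p under 0.05 and black bars are medians. In rosettes the photorespiration group has a median of 0.21 and the photosystem and antenna list one of -0.22; in roots the photosystem and antenna list has a median of -0.54.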

How the data were processed

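RNA-seq was measured in 12 libraries, in a table per organ. The headers name no unit. From their behaviour, the deposited values were taken as the authors' RPKM, equalised across the 6 libraries of a table, so tests stayed within a table and depth is unknown. The tables also hold the authors' deposited p-value and log2 fold change. Tools named in the submitters' processing notes are bcl2fastq 1.8.4, Trimmomatic 0.35, Bowtie2 2.0.6, edgeR 3.12.1 and limma 3.26.9, with genome build TAIR10. Here, log2(RPKM + 0.5) of genes whose mean reached 1 RPKM was fitted with limma 3.58.1 in R 4.3.3 (eBayes with a trend, two-sided, Benjamini-Hochberg over all genes tested), after the script had been tested on simulated data. Exact permutation of 3 against 3 libraries cannot go below p = 0.1 and was not used. Organ differences used the summed squared standard errors with Satterthwaite degrees of freedom, which treats rosettes and roots as independent. Whether they were was not tested. Every gene of the set is described, with values per library for those called or differing between organs. Genes of other lists are named where called, with some that were not. The 35 genes and all lists were chosen with earlier results of these data known. Coordinates, sequences and motif matches are from RefSeq TAIR10.1, read by locus with Python 3.11.15 and aligned with MAFFT 7.526. The deposited tables hold no coordinates. Alternatives were 2 other pseudocounts, other filters, no trend, array weights, median centring, the replicate number as a block and each library left out. Transgene rows, 4 per table, were left out.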

Additional observations from a re-analysis of the deposited data

Results flagged for a closer look

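The response to iron deficiency differed between rosettes and roots for 8 of the 31 genes tested in both organs, by the test of the difference itself (log2 fold change in rosettes minus that in roots, adjusted over 17680 genes). The difference was 0.56 for RBCS1A (adjusted p 0.0207), the small subunit gene with 93.1% of the RBCS level in control roots. For RCA, the RuBisCO activase, it was 0.82 (adjusted p 0.0116), with 1 repeated value in all rosette libraries, so it only restates the change in roots. For the Calvin cycle enzymes PGK1 and TKL1 it was 0.59 (adjusted p 0.00299) and 0.72 (adjusted p 0.000654). RPE went the other way, at -0.78 (adjusted p 0.00358). For the photorespiratory genes GGT1, GLDP2 and GLDT it was 0.80 (adjusted p 0.000546), 0.52 (adjusted p 0.0330) and 0.34 (adjusted p 0.0130). GLDP2 and GLDT were called in neither organ alone, and the root values of GLDP2 were tied within both groups. Groups of 3 libraries are too small for a check of single outlying libraries.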

How the results depend on the processing

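Pseudocounts of 0.1 and 1, array weights and median centring left the counts of genes called at 2 lower in rosettes and 8 lower in roots, and the same genes were called; a filter at 5 RPKM left 2 and 7. With no filter the counts were 1 in rosettes, 2 in roots (GGT1 and GLDP2) and 5 for differences between organs. Without a trend they were 1 in rosettes and 5 in roots. The causes were not tested. With the replicate number as a block they were 1 and 5. The difference of GLYK between organs was called with the block (adjusted p 0.00540, against 0.0878 without it). Deviations of control and Fe-deficient libraries of the same number correlated at -0.16 to 0.247 in rosettes and -0.00334 to 0.103 in roots. For libraries of different number, r ran from -0.309 to 0.244 and from -0.0871 to 0.0842. Values this weak cannot decide whether libraries of the same number were paired. Leaving out 1 library at a time gave 1 to 2 lower in rosettes, 1 to 8 lower and 0 to 1 higher in roots, and 6 to 12 differences between organs. The sum of RBCS1B, RBCS2B and RBCS3B in rosettes ranged from -0.0435 to 0.0840 on the log2 scale over these fits and was -0.0435 without control replicate 1, against 0.0167 with all libraries. For the 11 genes called or differing between organs, the single log2 fold changes stayed on their side of the threshold in 259 fits and lost a call in 47. In 1 fit a call was gained, that of GLDP2 in roots with no filter, where its values are tied. The 259 also hold genes in an organ where they were not called to begin with, such as RCA in rosettes, so they do not measure how stable the calls were. Only RPE in rosettes and GGT1 in roots kept their call in 14 of 14 fits. AGT1 in rosettes and RBCS1A and PGK1 in roots kept theirs in 6 of 14. Outside the 11, EMB3119 was called without root control replicate 1 and CP12-1 without Fe-deficient root replicate 1. With 3 libraries a group and unknown depth, the spread between replicates is the only measure of error, and ties among abundant genes narrow it.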

Other observations

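The cytosolic isoforms of the same reactions were followed as a list of 10 genes. In rosettes 2 were called higher, GAPC2, a glycolytic glyceraldehyde phosphate dehydrogenase, from 802 ± 26.4 to 1025 ± 23.9 RPKM (SD, n = 3, log2 fold change 0.35, adjusted p 0.0233), and FBA8, a cytosolic aldolase, from 164 ± 1.86 to 190.1 ± 2.24 RPKM (log2 fold change 0.21, adjusted p 0.0432). In roots 8 of the 10 were tested and none was called by limma, while 2 had an unadjusted p under 0.05. The response of GAPC2 differed between the organs by 0.53 (adjusted p 0.00731). Of 4 other beta carbonic anhydrases, BCA4 differed between the organs by 0.34 (adjusted p 0.0286), with log2 fold changes of 0.15 in rosettes and -0.18 in roots that were not called in either.

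In rosettes the photosystem I genes PSAN, PSAF and PSAD-2 were called lower, with log2 fold changes of -1.53, -1.02 and -0.97. RPE, at -1.05, lay in the same range, and no other gene among the 35 did. PSAD-1, PSAE-1, PSAG, PSAH2, PSAK, PSAL and PSAO, also of photosystem I, lay between -0.32 and -0.13 in rosettes and were not called. In roots, PSBR, a subunit of photosystem II, had the lowest log2 fold change of the photosystem and antenna list, at -0.74 (adjusted p 0.00726), and its response differed between the organs by 0.94 (adjusted p 0.000861).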
